A study of Drosophila melanogaster with 9 samples.

Results

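Glutathione S-transferases and UDP-glycosyltransferases are the conjugating enzymes of detoxification, and their genes were followed here in whole Drosophila melanogaster flies with and without a mutation of the nuclear receptor E78A. Members were the rows of the count table whose symbol in the authors' annotation sheet begins with Gst and a capital letter or with Ugt. There were 53 of them among 14865 listed genes, 35 glutathione S-transferases and 18 with a Ugt symbol. Poly(A) RNA of whole flies aged 8 days after eclosion was sequenced from 5 control and 4 E78A mutant libraries, and both genotypes were kept on food of 8% yeast and 9% sugar. The authors' sample sheet names the genotypes w1118, a white-eyed laboratory stock, and E7818.37. The number of flies in a library, their sex and whether libraries came from separate crosses are not given, and p-values therefore cover the variation of these 9 samples alone, part of which may be technical.

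Glutathione S-transferases join the tripeptide glutathione to electrophilic compounds such as insecticides, plant toxins and the aldehydes left by lipid peroxidation. UDP-glycosyltransferases of insects join a sugar, mostly glucose from UDP-glucose, to small lipophilic molecules, which makes them soluble and ready for export. Both families have grown in insects by tandem duplication, so many genes lie side by side with close relatives. They are active in gut, fat body, Malpighian tubule and sense organs, and many of them are induced by xenobiotics or by oxidative stress through the transcription factor CncC, which its partner Keap1 holds back.

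Library totals ran from 16556267 to 19093675 counts. The genotype tag names the opposite genotype of the title in 4 libraries (control 4 and 5, mutant 3 and 4), and the authors' sample sheet sided with the title in 9 of 9. Grouping is by title. Eip78C, the gene of E78A, ran from 8.57 to 15.6 CPM in controls and from 8.86 to 12.4 CPM in the mutants, so that its level does not check the labels. Midgut, Malpighian tubule, fat body, eye, muscle and male reproductive tissue each had markers present, and 38 of 40 markers had count rows. Of the fat body markers, Fbp1 had 0 to 3 counts per library, and Lsp2 ran from 4.47 to 300 CPM in controls. The yolk and ovary genes summed to 16.1 CPM or less in every library, against 5077 CPM or more for 4 male accessory gland and ejaculatory genes.

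The 35 glutathione S-transferases together took 0.254% of the counts in the controls, and the 18 Ugt genes 0.0522%. Control libraries had a Gst sum of 2542 ± 300 CPM (SD, n = 5) and mutant libraries one of 2697 ± 206 CPM (SD, n = 4), with the Ugt sum at 522 ± 40.8 and 567 ± 37 CPM. Further values with ± are means and SDs over these same libraries. The ranges of the genotypes overlapped in both sums. Per kilobase of coding length, a scale on which genes can be set against each other, GstD1 stood highest, at 823 ± 113 CPM per kilobase in the controls and 887 ± 96.4 in the mutants. GstD1 metabolises DDT and is widely used as a reporter of oxidative stress. GstE12 followed at 619 ± 63.7 and 623 ± 72.7, and GstS1, a sigma-class enzyme that conjugates the lipid aldehyde 4-hydroxynonenal, at 530 ± 25.1 and 590 ± 55.5. GstT4 of the theta class was next at 370 ± 34.1 and 332 ± 42.3. Within the mutants, the levels of GstE12 and GstS1 were closer to each other than the SD of either. GstE9 came after these 4 genes at 207 ± 66.5 in the controls.

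Among the Ugt genes the highest level per kilobase was that of Ugt36Bc, at 60.9 ± 9.89 CPM per kilobase in the controls and 98.3 ± 16.3 in the mutants. Ugt86Da followed with 49.4 ± 6.78 and 48.8 ± 4.59, and Ugt35b with 43.0 ± 6.89 and 34.6 ± 5.53. Thus the highest Ugt gene stood 11th of the 53 members. The gene listed as Ugt is annotated as UDP-glucose-glycoprotein glucosyltransferase, a folding sensor of the endoplasmic reticulum that puts glucose on misfolded glycoproteins and is no detoxification enzyme. Its level was 150 ± 9.36 CPM in controls and 147 ± 8.66 CPM in mutants, a log2 fold change of -0.03 (95% interval -0.18 to 0.13, edgeR adjusted p = 0.885). It made up 27.5% of the Ugt sum. Without it that sum was 372 ± 40.3 CPM in controls, 0.0372% of the counts, and 420 ± 31.2 CPM in mutants.

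**Figure D1:**
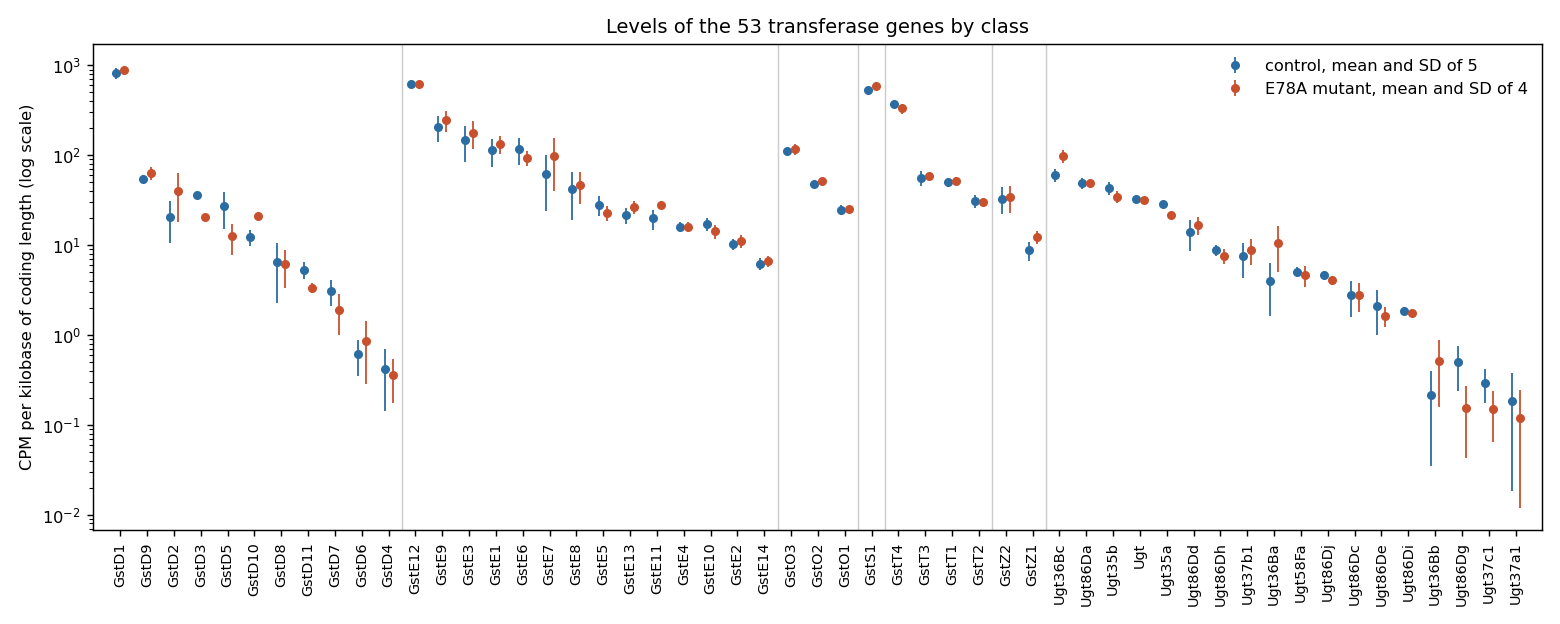
Level of each of the 53 members by class, as CPM per kilobase of coding length on a log axis. Points and bars are means and SD over 5 control (blue) and 4 mutant (red) libraries, with lower bars cut short where the SD comes near or passes the mean. GstD1, GstE12, GstS1 and GstT4 stand above all others, and the members span more than 3 powers of 10.

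The comparison of the genotypes asked which of these genes differ between E78A mutant and control flies. GstD3 and Ugt35a were lower in the mutants and GstD10 and Ugt36Bc higher, by 1.32-fold to 1.74-fold. These 4 genes were the members called among the 48 that passed the filter on low counts, at an adjusted p under 0.05 over all 13274 genes tested with edgeR. They were 8.33% of the 48, beside 1.63% of all tested genes called. In each direction that is 2 of 48 members, or 4.17%, beside 0.708% of all tested genes called higher and 0.927% called lower. At an unadjusted p under 0.05 there were 6 higher and 5 lower members, 22.9% of the 48 beside 15.1% of all tested genes. The median log2 fold change was 0.06 over the 33 tested Gst genes and -0.03 over the 15 tested Ugt genes, beside -0.002 over all tested genes. In whole flies, fewer cells of a type and less RNA per cell cannot be told apart.

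Libraries of both genotypes carry a replicate number in the authors' sample sheet, and what it marks is not stated. Control replicates 1, 2, 4 and 5 share their numbers with mutant replicates 1, 2, 3 and 4, and control replicate 3 shares its number with none. Libraries of one number were taken here as pairs. How many of all tested genes lay on one side in every pair was not counted, so such counts for members are description only. With these pairs as a block, edgeR called the same 4 members and also GstD5 and GstE6, both lower. The block fit leaves out control replicate 3, so it differs from the first fit in that library as well as in the pairs. That made 2 members higher and 4 lower, 4.17% and 8.33%, where 1.81% and 1.98% of all tested genes were called. The authors' deposited table holds 2 members higher and 2 lower at an adjusted p under 0.05, and these were the same 4 genes. Its fit held these 9 libraries and, as inferred from its mean signals, 3 others, so it is no separate test. The share of all genes called in it is not given here. DESeq2 on the 9 libraries called them too, and no other member, where it called 3.44% of all genes it tested.

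**Figure D2:**
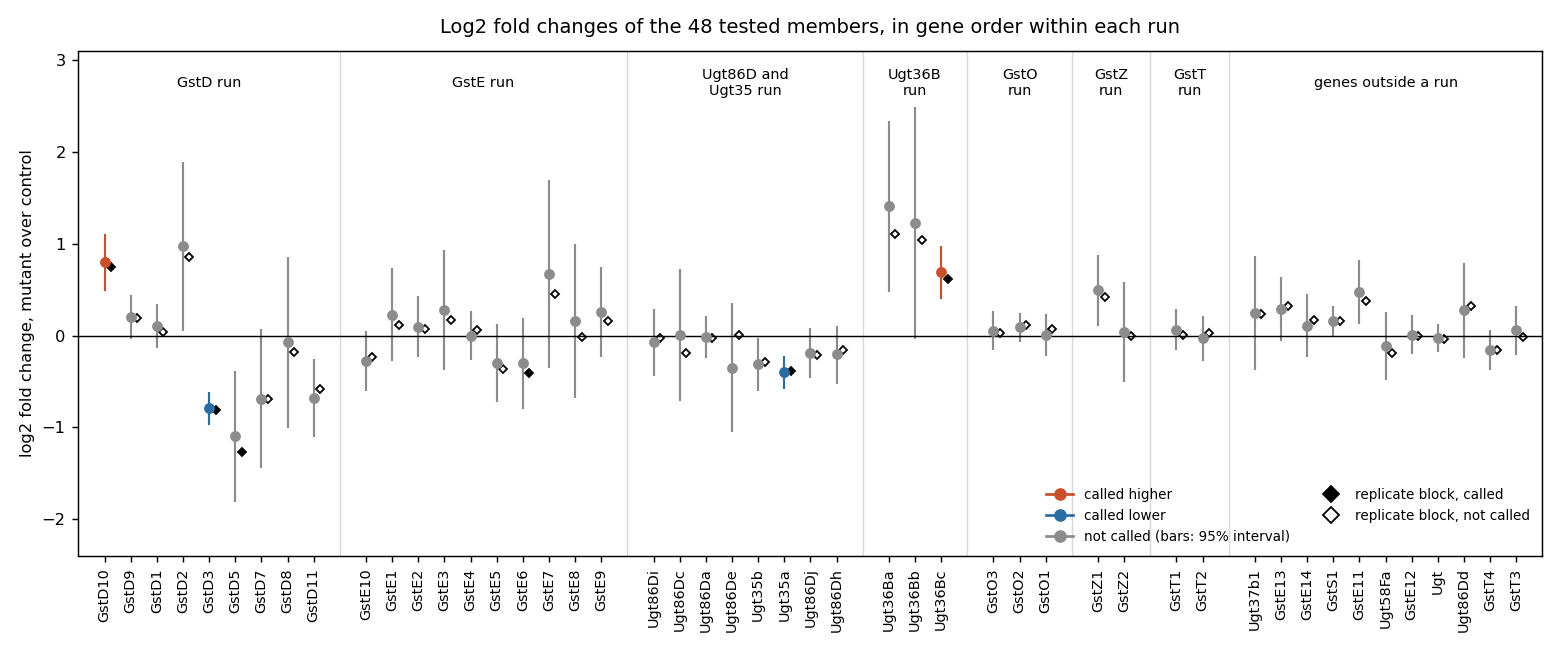
Log2 fold change, mutant over control, of the 48 tested members, in gene order within each run of neighbours. Circles with 95% intervals are the edgeR fit without pairs, coloured where called. Diamonds are the fit with the replicate block on 8 libraries, filled where called. GstD10 and Ugt36Bc lie above 0 and GstD3 and Ugt35a below in both fits, and GstD5 and GstE6 are called in the block fit alone.

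Of the 53 members, 40 lie in 7 runs in which neighbours are at most 20000 bases apart, and 13 lie alone. The GstD run holds 11 delta-class genes on chromosome 3R between 12364776 and 12385624 (dm6), with GstD10, GstD9 and GstD1 on the minus strand and the other 8 on the plus strand. Its sum did not separate the genotypes, with 623 ± 82.4 CPM among controls and 666 ± 66.5 among mutants, and 83.2% of it was GstD1. Below that sum its genes went in opposite directions.

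GstD3 lies on 3R at 12373068 to 12373813 and has an annotated coding length of 597 bases, the shortest of the 53 members. In control replicates 1 to 5 it had 20.1, 22.6, 20.1, 22.2 and 22.1 CPM, and in mutant replicates 1 to 4 it had 12.2, 11.8, 13.2 and 12.2 CPM. Every mutant library lay below every control library, and the values within a genotype differed by no more than 1.13-fold. GstD3 fell 1.73-fold, by 0.79 on the log2 scale (SE 0.08, edgeR adjusted p = 0.000396), from 21.4 ± 1.22 to 12.4 ± 0.583 CPM. It kept its call in 15 of 16 alternative settings and lost it with the 5 libraries whose labels agree (-0.80, adjusted p = 0.117).

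GstD10, the first gene of the run (12364776 to 12365735), went the opposite way. The controls had 5.97, 9.06, 6.36, 7.67 and 9.43 CPM and the mutants 13.7, 12, 13.2 and 14.7 CPM, and again the genotypes did not overlap. GstD10 rose 1.74-fold, from 7.70 ± 1.55 to 13.4 ± 1.14 CPM (log2 fold change 0.80, SE 0.15, edgeR adjusted p = 0.0148). The call was lost without mutant replicate 4 (adjusted p = 0.0601) and with the 5 libraries whose labels agree (0.85, adjusted p = 0.367).

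GstD5, which lies 1 gene beyond GstD3, was far more variable. The controls had 28.9, 19.4, 8.94, 12.5 and 17.7 CPM and the mutants 11.8, 4.52, 7.14 and 9.18 CPM. The lowest control library, replicate 3, lay among the mutants, whereas each mutant library lay below the control of its own replicate number in 4 of 4 pairs. Without pairs the log2 fold change was -1.10 (SE 0.33, edgeR adjusted p = 0.136). With the replicate block GstD5 fell by 1.27 on the log2 scale, 2.41-fold (edgeR adjusted p = 0.0051). The block fit leaves out control replicate 3. Leaving out that library without pairs gave -1.27 (edgeR adjusted p = 0.0826).

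GstD2, the neighbour of GstD3 at a distance of 363 bases, had 5.42, 20.7, 9.97, 11.3 and 19.1 CPM in controls and 8.87, 19.6, 37.9 and 38.0 CPM in the mutants. Mutant replicates 3 and 4 stood above all controls, and mutant replicates 1 and 2 stood among them. The log2 fold change of 0.97 did not pass (SE 0.42, 95% interval 0.05 to 1.89, edgeR adjusted p = 0.304, and 0.0851 with the replicate block). GstD11, the last gene of the run, had 3.90 ± 0.822 and 2.44 ± 0.315 CPM with no overlap between the genotypes, and it did not pass either (-0.68, SE 0.20, edgeR adjusted p = 0.126). GstD1 itself had 516 ± 70.9 and 556 ± 60.4 CPM (0.11, 95% interval -0.13 to 0.35, edgeR adjusted p = 0.683). GstD9, GstD7 and GstD8 were not called and had log2 fold changes of 0.20, -0.69 and -0.08. GstD4 and GstD6 did not pass the filter, with 1 to 9 and 3 to 15 counts per library.

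The delta-class neighbours are related copies, and the sources used here do not say how reads matching several of them were counted, which leaves the split of counts among them uncertain. Of 37 other tested genes within 100000 bases of the run, 2 were called, where 1.63% of all tested genes were. Both were higher, the protein-coding gene CG5961 (0.91) and the non-coding RNA CR44039 (1.82). The stocks may also differ in sequence along this stretch and along those of the runs below. Such differences and the E78A mutation cannot be told apart at any of them.

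**Figure D3:**
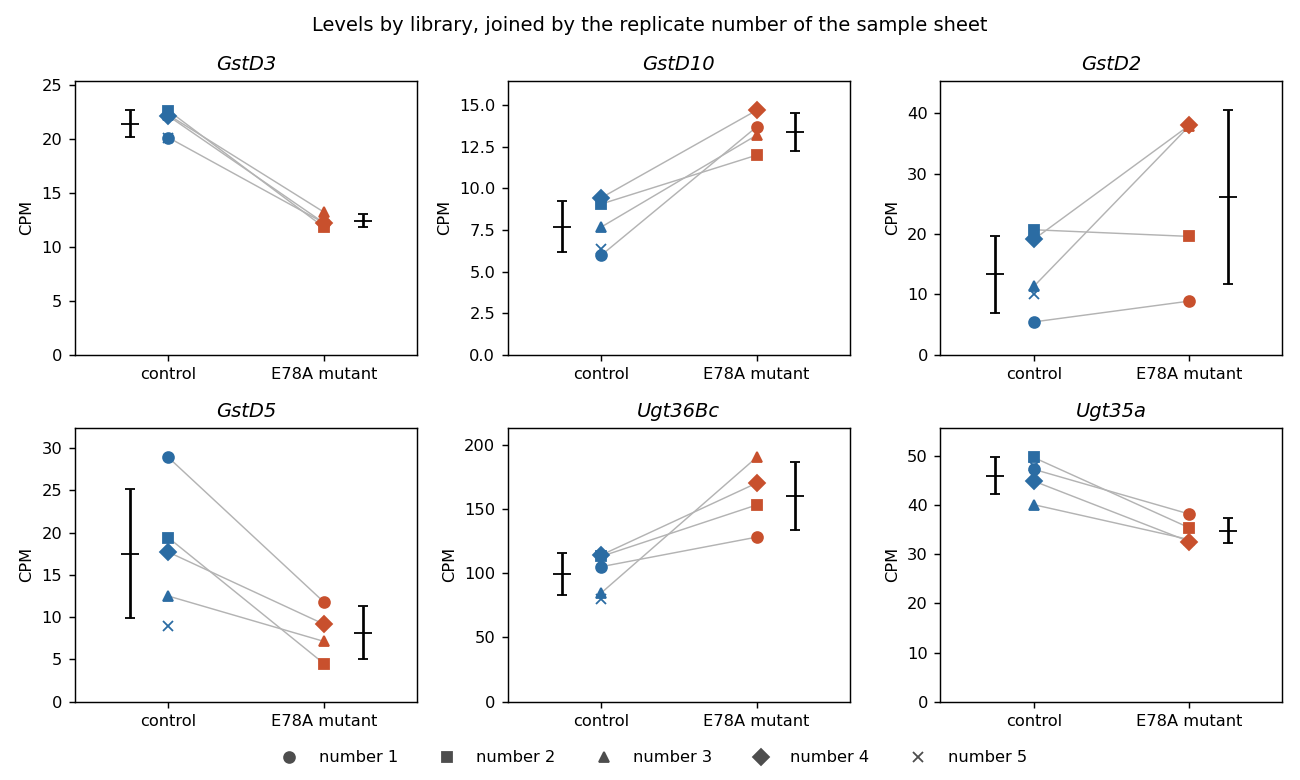
CPM of 6 members in each library, by genotype, with the mean and SD of each genotype at the side. Symbols give the replicate number of the authors' sample sheet, and lines join libraries that share one. GstD3 and Ugt35a lie lower and GstD10 and Ugt36Bc higher in every mutant library, while GstD2 and GstD5 overlap between the genotypes.

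The Ugt36B run consists of 3 neighbours on the plus strand of chromosome 2L, Ugt36Ba, Ugt36Bb and Ugt36Bc, between 16794211 and 16801584 (dm6). Ugt36Bc, which made up 91.7% of the counts of the run, had 105, 113, 79.7, 84.5 and 114 CPM in controls and 128, 153, 190 and 170 CPM in the mutants. The lowest mutant library stood above the highest control library. Ugt36Bc rose 1.61-fold, from 99.3 ± 16.1 to 160 ± 26.5 CPM (log2 fold change 0.69, SE 0.13, edgeR adjusted p = 0.0226).

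The call of Ugt36Bc was close to the threshold. It was lost without control replicate 3 (adjusted p = 0.0519), control replicate 4 (0.0628) or mutant replicate 2 (0.0528), 3 (0.0755) or 4 (0.0815), with log2 fold changes from 0.60 to 0.78 over all 9 libraries left out in turn. With the 5 libraries whose labels agree the value was 0.50 (edgeR adjusted p = 0.677).

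Ugt36Ba had 7.74, 11.6, 1.66, 4.32 and 6.0 CPM in controls and 9.50, 13.0, 29.2 and 15 CPM in the mutants. Mutant replicate 1 lay below control replicate 2, and in 4 of 4 pairs the mutant was the higher. Its log2 fold change of 1.41 was the largest of all tested members, and with its wide spread it did not pass (SE 0.43, 95% interval 0.48 to 2.34, edgeR adjusted p = 0.143). Ugt36Bb was near the limit of detection, with 2 to 29 counts per library (1.23, SE 0.58, edgeR adjusted p = 0.352). In Ugt36Ba and Ugt36Bb as in Ugt36Bc the highest library was mutant replicate 3. Of 39 other tested genes within 100000 bases, 3 were called, where 1.63% of all tested genes were. All of these were lower, ChLD3 (-1.41), CG13282 (-0.51) and CG31809 (-3.17), so the calls on either side of the run went against its own direction. CG31809 had few counts, 112 over the 5 controls and 9 over the 4 mutants.

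The longest run of Ugt genes holds Ugt35a, Ugt35b and 7 Ugt86D genes on chromosome 3R between 11151026 and 11177910 (dm6). Of its 8 tested genes, 7 had a negative log2 fold change, beside 6705 of all 13274 tested genes. Some of the 7 were near 0, such as Ugt86Da (-0.015) and Ugt86Di (-0.074). Of the 8, 1 was called, where 1.63% of all tested genes were. The sum of the run was 223 ± 21.9 CPM in controls and 194 ± 16.9 CPM in mutants. Ugt35a (11170817 to 11172664, minus strand) had 47.3, 49.7, 47.9, 40.1 and 44.9 CPM in controls and 38.2, 35.4, 33.0 and 32.6 CPM in the mutants, with no overlap. It fell 1.32-fold, from 46.0 ± 3.71 to 34.8 ± 2.55 CPM (-0.40, SE 0.08, edgeR adjusted p = 0.0368, and 0.0146 with the replicate block).

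The size of that difference held from -0.45 to -0.37 over all 9 libraries left out in turn, while the call was lost in 7 of these 9 fits. The adjusted p without control replicates 1, 2, 3 and 5 was 0.0832, 0.0518, 0.0588 and 0.0737, and without mutant replicates 2, 3 and 4 it was 0.0872, 0.124 and 0.130. With the 5 libraries whose labels agree it was 0.595. Ugt35b, 570 bases from Ugt35a on the same strand, had 56.5, 78.3, 71.3, 54.0 and 72.5 CPM in controls and 53.8, 63.6, 42.7 and 54.1 CPM in the mutants. The groups overlapped, and each mutant library was below its paired control (-0.31, SE 0.13, edgeR adjusted p = 0.297, and 0.0534 with the block).

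Ugt86Da, the most abundant gene of the run, was not called, at 78.2 ± 10.7 and 77.3 ± 7.28 CPM (95% interval of the log2 fold change -0.24 to 0.21, edgeR adjusted p = 0.961). Ugt86Dj and Ugt86Dh had log2 fold changes of -0.19 and -0.21 and were not called. Ugt86Dg did not pass the filter. It had 71 counts over the 5 controls and 17 over the 4 mutants, at 0.406 CPM or more in every control and 0.403 CPM or less in every mutant, and 0 counts in mutant replicate 4, which allows up to 0.182 CPM for counting error. Of 32 other tested genes within 100000 bases of the run, scpr-A (-0.48) and scpr-B (-0.97) were called, both lower, where 1.63% of all tested genes were called.

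The other Ugt members were spread over the genome and had no call. Ugt86Dd, known for natural variants that alter resistance to nicotine, lies alone before that run on the same arm. It had 35.9, 17.2, 21.9, 16.8 and 16.2 CPM in controls and 27.7, 28.1, 31.0 and 17.6 CPM in the mutants (0.27, SE 0.24, edgeR adjusted p = 0.623). Control replicate 1 stood far above the other controls. Ugt37b1 had 12 ± 5.06 and 14.3 ± 4.68 CPM and Ugt58Fa 8.04 ± 1.01 and 7.41 ± 1.97 CPM. Ugt37a1 and Ugt37c1, with 0 to 14 and 2 to 14 counts per library, did not pass the filter.

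The GstE run, 10 epsilon-class genes on chromosome 2R between 18396638 and 18409835 (dm6), varied widely between libraries of one genotype, and in several of its genes the replicate numbers shared that variation. Its sum was 506 ± 161 CPM in controls and 574 ± 123 CPM in mutants, and no gene of it was called without pairs. The sums were 677 CPM in control replicate 1 and 653 CPM in its mutant partner, 600 and 530 CPM for number 2, 338 and 421 CPM for number 3, and 586 and 691 CPM for number 4. Control replicate 3, which has no partner, was lowest at 328 CPM.

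GstE7 had the widest range of the run within either genotype. Its values were 73.8 and 85.1 CPM in the control and the mutant of number 1, 38.7 and 36.3 CPM in those of number 2, 17.4 and 30.7 CPM in those of number 3, 60.2 and 112 CPM in those of number 4, and 17.2 CPM in the control left alone. Within the controls the highest library exceeded the lowest 4.28-fold, and within a pair the mutant stood between 0.938 and 1.86 times its control. Its neighbour GstE8 had 44.5 and 38.8 CPM in number 1, 24.8 and 25.7 CPM in number 2, 15.5 and 16.8 CPM in number 3 and 43.8 and 44.1 CPM in number 4. Its ratios within pairs ran from 0.872 to 1.08, against a 3.79-fold range within the controls. GstE9, whose order of numbers differed, had 156 and 188 CPM in number 1, 204 and 209 CPM in number 2, 101 and 111 CPM in number 3 and 129 and 147 CPM in number 4. GstE1 did not follow the numbers, with 104 and 81.1 CPM in number 1, 98.2 and 64.9 CPM in number 2, 51.8 and 101 CPM in number 3 and 79.4 and 110 CPM in number 4. Its ratios within pairs ran from 0.661 to 1.94, beside a 2.19-fold range within the controls. In GstE3 the numbers 1 and 4 were high as in GstE7 and GstE8, while GstE2 and GstE4 varied by no more than 1.49-fold within either genotype.

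GstE6 lay lower in the mutant of all 4 pairs. Its values were 96.5 and 73.0 CPM in number 1, 96.1 and 62.5 CPM in number 2, 49.7 and 46.2 CPM in number 3 and 95.9 and 69.4 CPM in number 4, with 49.1 CPM in the control left alone. With the replicate block GstE6 fell by 0.40 on the log2 scale (edgeR adjusted p = 0.0241), and without it the value was -0.30 (SE 0.23, adjusted p = 0.569). The block fit also leaves out the control left alone, the lowest of the controls, so pairing and that omission are not separated here. GstE5 and GstE10 were below their paired control in 4 of 4 pairs as well and were not called in either fit (adjusted p with the block 0.0702 and 0.293). GstE9 was above it in 4 of 4 (0.191). GstE10 and GstE1 overlap at their ends on opposite strands, and GstE9 overlaps imd on the other strand. Of 27 other tested genes within 100000 bases of the run, 1 was called, where 1.63% of all tested genes were. It was CG15068, which was higher (0.64).

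The 5 midgut markers also differed between numbers, with sums of 4500 and 4523 CPM in the control and mutant of number 1, 3451 and 3384 CPM in those of number 2, 2939 and 1814 CPM in those of number 3 and 2987 and 2241 CPM in those of number 4. None of the 5 was called by edgeR on the 9 libraries without pairs. With the block Jon99Cii was lower (-0.93) and Amy-p higher (0.28), where 1.98% of all tested genes were lower and 1.81% higher. The 5 Malpighian tubule markers ran from 198 to 236 CPM in controls and from 189 to 234 CPM in the mutants. Of these, 4 of 5 had a negative log2 fold change, beside 6705 of all 13274 tested genes. Irk3 lay lower in every mutant library, at 69.1 ± 5.14 and 55.1 ± 3.78 CPM (-0.33, edgeR adjusted p = 0.0624, and 0.0291 with the block). The 5 fat body markers summed to between 6293 and 9147 CPM in controls and between 6042 and 7639 CPM in mutants, and 1 of them, apolpp, was called lower with the block alone (-0.28, edgeR adjusted p = 0.0309). The part of tissue shares in the values of the members was not tested.

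**Figure D4:**
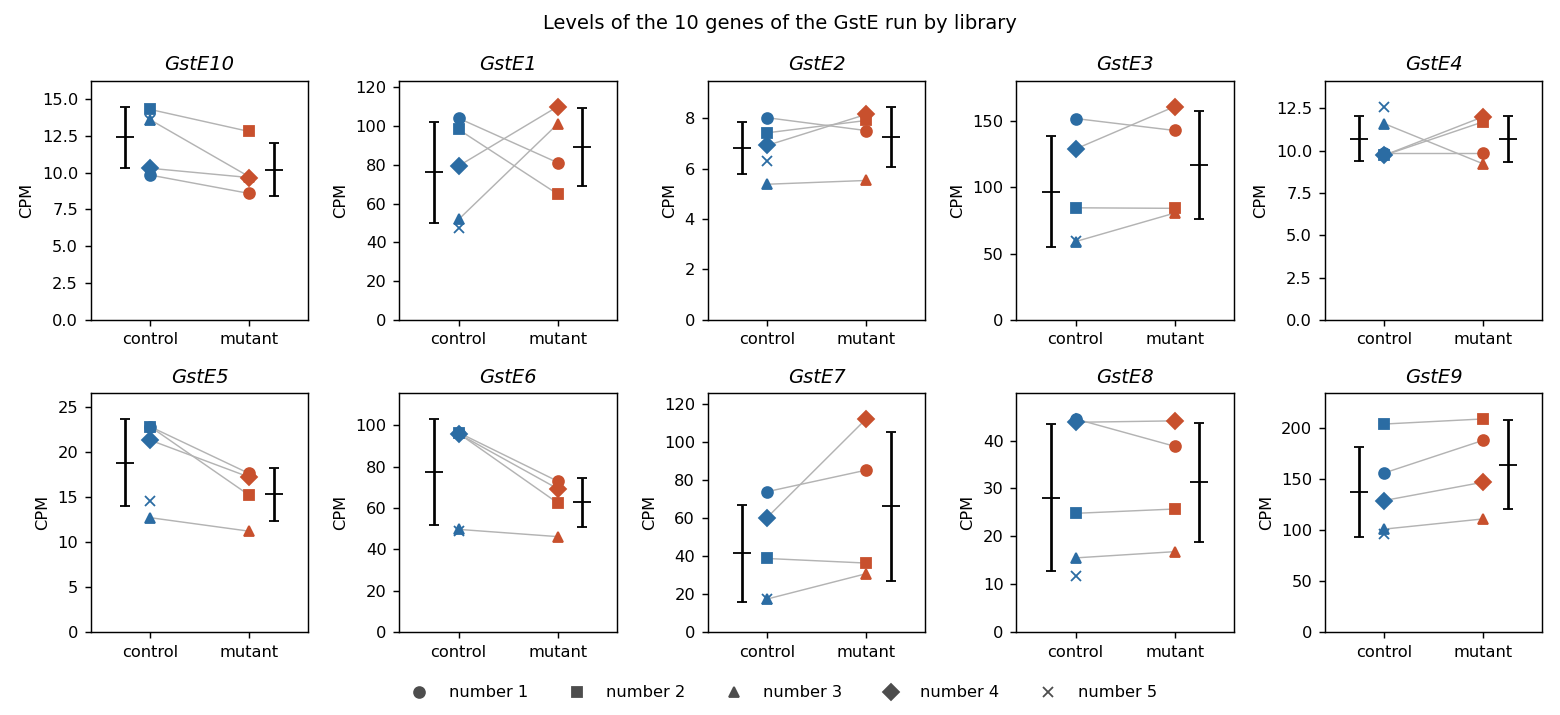
CPM of the 10 genes of the GstE run in each library, by genotype, with the mean and SD of each genotype at the side. Symbols give the replicate number of the sample sheet, and lines join libraries that share one. For GstE8 and GstE9 the joined libraries lie closer together than the libraries of a genotype do, and all 4 lines of GstE6 point down.

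Epsilon-class genes outside the run had no call either. GstE11 had 12.1, 18.5, 9.17, 13.7 and 13.5 CPM in controls and 16.6, 20, 19.5 and 18.4 CPM in the mutants. Control replicate 2 lay among the mutants, and the log2 fold change of 0.48 did not pass (SE 0.16, edgeR adjusted p = 0.182) unless that library was left out (0.62, adjusted p = 0.041). GstE12, at 414 ± 42.6 and 417 ± 48.6 CPM, had a log2 fold change of 0.01 (95% interval -0.20 to 0.22, edgeR adjusted p = 0.972), whose sign turned with upper-quartile scaling. GstE14, known as noppera-bo and needed in the ecdysone-producing gland for steroid hormone synthesis, had 4.33 ± 0.618 and 4.66 ± 0.649 CPM (95% interval -0.24 to 0.45). GstE13 had 14.7 ± 3.08 and 17.9 ± 2.94 CPM and was higher in the mutant of 4 of 4 pairs (0.29, edgeR adjusted p = 0.427).

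The sigma, theta, omega and zeta classes held no call. GstS1 had 431, 388, 410, 397 and 385 CPM in controls and 494, 471, 403 and 423 CPM in the mutants, overlapping between the genotypes (0.15, SE 0.08, edgeR adjusted p = 0.385). The mutant was the higher in 4 of 4 pairs, with a log2 fold change of 0.16 in the replicate block (95% interval 0.03 to 0.29, edgeR adjusted p = 0.197), which did not pass either. GstT4 had 263 ± 24.2 and 236 ± 30.0 CPM, and GstT1, GstT2 and GstT3 had log2 fold changes between -0.03 and 0.06. The omega-class genes GstO1, GstO2 and GstO3, relatives of the eye pigment enzyme sepia, lay between 0.01 and 0.09, with intervals that stayed within -0.22 and 0.27. GstO2 overlaps the sepia gene se on the other strand.

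GstZ1 and GstZ2 encode zeta-class enzymes, known in other species as the maleylacetoacetate isomerase of tyrosine breakdown. GstZ1 had 7.47, 8.68, 5.04, 5.84 and 5.32 CPM in controls and 7.62, 10.2, 10.7 and 7.96 CPM in the mutants. The mutant was the higher in 4 of 4 pairs, and the log2 fold change of 0.49 did not pass (SE 0.18, edgeR adjusted p = 0.217). GstZ2, its neighbour at 268 bases, had 23.5 ± 7.75 and 24.2 ± 8.03 CPM.

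The members varied more between libraries of a genotype than tested genes did at large, as a description. The median coefficient of variation was 17.9% over the 48 tested members in the controls and 16.4% in the mutants, beside 12.7% and 10.9% over all tested genes. In the controls, 17 of the 48 had a highest library more than 2-fold above the lowest, or 35.4%, beside 13.7% of all tested genes. The genotypes did not overlap for 5 of the 48 tested members, or 10.4%, beside 6.16% of all tested genes. Of these, 2 were higher and 3 lower, where 2.79% and 3.37% of all tested genes were.

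A further 18 genes carry a Ugt symbol in the newer Ensembl annotation of the same assembly and another name in the authors' sheet. Of these, 16 were tested and 0 called with edgeR, with a median log2 fold change of -0.07. At an unadjusted p under 0.05 there were 0 higher and 4 lower, beside 969 higher and 1035 lower of all 13274 tested genes. With the replicate block 2 of them were lower, beside 1.98% of all tested genes, and both were named after their values were seen. CG5999, now Ugt37A3, had 18.4, 13.7, 9.28, 9.85 and 12.2 CPM in controls and 5.46, 9.10, 6.62 and 7.11 CPM in the mutants (-0.84, edgeR adjusted p = 0.0757, and 0.0281 with the block). CG10170, now Ugt303B3, had 56.0 ± 4.98 and 44.8 ± 2.32 CPM (-0.32, adjusted p = 0.0774, and 0.0204 with the block). In both genes every mutant library lay below every control library. With CG16732 that held for 3 of the 16 tested genes, beside 3.37% of all tested genes.

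Other genes of the detoxification pathway were read from 8 lists, of which 56 of 62 entries had counts. None of the 56 was called by edgeR, where 1.63% of all tested genes were. At an unadjusted p under 0.05 there were 8 higher and 2 lower genes, beside 969 higher and 1035 lower of all 13274 tested genes. The median log2 fold change of the 56 was 0.04. With DESeq2 0 were higher and 1 was lower, beside 1.61% and 1.82% of all genes it tested. With the replicate block 2 were higher and 2 lower, beside 1.81% and 1.98% of all tested genes. Keap1, the repressor of CncC, had 30.9, 24.3, 26.2, 29.5 and 24.0 CPM in controls and 23.0, 16.4, 18.9 and 19.8 CPM in the mutants, with no overlap. Its log2 fold change was -0.47 (SE 0.11, edgeR adjusted p = 0.0672), and it fell with the replicate block (-0.48, adjusted p = 0.016) and with DESeq2 (adjusted p = 0.0125). The CncC gene cnc had 347 ± 25.6 and 363 ± 18.5 CPM (0.06, edgeR adjusted p = 0.731).

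Among 13 ABC transporters, the pumps that can export conjugates, CG10505 had 13.0, 18.2, 16.3, 19.5 and 24.1 CPM in controls and 14.2, 38.0, 48.5 and 48.1 CPM in the mutants. Mutant replicate 1 lay among the controls and the other 3 lay above them. The log2 fold change was 1.03 (SE 0.29, edgeR adjusted p = 0.12, and 0.0134 with the replicate block, where CG10505 was called higher), and it was called without mutant replicate 1 (1.30, adjusted p = 0.00313). CG15116, a glutathione peroxidase relative, had 35.2 ± 4.65 and 44.6 ± 5.6 CPM (0.34, edgeR adjusted p = 0.176) and was called higher with the block (0.41, adjusted p = 0.0111). Prx2540-2, a peroxiredoxin with near copies named after its values were seen, was called lower with the block alone (-0.37, edgeR adjusted p = 0.0243, against 0.681 without it).

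The genes with the smallest p of the remaining lists were not called. The gene sgl, which makes UDP-glucuronic acid from UDP-glucose, had 59.2 ± 3.84 and 74.6 ± 12.5 CPM (0.34, edgeR adjusted p = 0.16, and 0.0338 without mutant replicate 2), and the immune-regulated catalase Irc had 183 ± 41.7 and 253 ± 37.9 CPM (0.47, adjusted p = 0.209). The predicted gamma-glutamyl enzyme CG1492 had a log2 fold change of 0.22, the microsomal transferase Mgstl -0.19 and the sulfotransferase St3 -0.10.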

How the data were processed

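Per the labels' protocols, libraries of poly(A) RNA kept strand information and were read as paired ends of 51 cycles. Tools listed without roles, per the submitters' processing notes, are DESeq2 1.20.0 and 1.22.2, featureCounts 1.6.3, STAR 2.6.1b and cutadapt 1.16, with the builds dm6 and BDGP6. Whether counting used strand, and how it handled multi-mapping reads, is not stated. The authors deposited raw counts per gene. Their deposited comparison gives log2 fold changes, whose shrinkage is not stated, and adjusted p-values. Its mean normalised signal per gene was set against the 9 libraries scaled by the deposited size factors (a ratio per library). Times 12, it was below their sum for 0 genes and equal to it for 83. Times 11, it was below for 522 genes. From this, 3 libraries not analysed here are inferred to have entered the authors' fit.

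The 9 libraries entered a fit of their counts by edgeR 4.0.16, run in R 4.3.3 (TMM, filterByExpr with a minimum count of 10, glmQLFit, glmQLFTest, genotype), with Benjamini-Hochberg adjustment over 13274 genes and a threshold of 0.05. SEs were taken from the F statistic. Replicates differed beyond sampling noise (chi-square per degree of freedom from 18.0 to 44.8). CPM uses TMM-scaled totals, and coding length is the union of coding exons in the Ensembl 115 annotation of the same assembly, where 17465 of 17599 shared genes had the sheet's coordinates. Floors are 3 counts per library and cover counting error only. Deviations from the group mean correlated at 0.207 to 0.277 between libraries of one sample-sheet number, so the numbers were taken as pairs. That choice was made from the same data that the block fit then tested. The members, lists, rules and alternatives were chosen with earlier results of these data known.

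The rule named called members, the 8 smallest p and the 3 highest levels per coding kilobase in each family, and the smallest p of each other list. Other members are given by levels and counts, and GstE6 was chosen once its values were known. Settings also tried were upper-quartile and RLE factors, DESeq2 1.42.0, no filter, 1 CPM in 4 libraries, each library left out, the replicate block on 8 libraries and the 5 libraries whose labels agree. Promoter sequences were not used here, so the planned motif search was not run. The script was tested on simulated data.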

Additional observations from a re-analysis of the deposited data

Results flagged for a closer look

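The level of Ugt86Dd in control replicate 1 was 35.9 CPM, apart from the other 4 controls at 16.2 to 21.9 CPM by more than Dixon's 95% limit for 5 values. It was the 1 such value among 58 groups of libraries examined, where chance gives about 1 in 20.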

How the results depend on the processing

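Of 430 log2 fold changes recomputed for 27 named genes, 394 kept their direction and their side of the threshold, 17 lost a call, 9 gained one and 10 changed sign. The sign changes were those of GstE12, at -0.002 with upper-quartile factors, -0.007 with the replicate block and from -0.068 to 0.069 over libraries left out in turn, and of Ugt86Da, from -0.083 to 0.050 over libraries left out. The count of members called higher ran from 0 to 3 and that of members called lower from 1 to 2 over libraries left out, and both were 0 with the 5 libraries whose labels agree, 3 control and 2 mutant, a fit with fewer samples. Without mutant replicate 4, 0 members were higher. The replicate block, which leaves out control replicate 3, gave 4 members lower and, of the other detoxification genes, 2 higher and 2 lower. DESeq2 gave 1 of these other genes lower, and libraries left out gave 0 to 1 in either direction. Apart from GstD5, GstE6, Keap1, CG10505, CG15116 and Prx2540-2, the block changed no call among the members and the 56 other detoxification genes. RLE factors, upper-quartile factors and both filters gave the same 4 member calls. The 5 members that did not pass the filter, with at most 25 counts in a library, were not tested in the fit reported here, and were not called with DESeq2 or without the filter.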
